A study of Mus musculus with 15 samples.

Results

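AP-1 is a family of transcription factors built as pairs of basic leucine zipper (bZIP) proteins. Here 8 of its genes were followed by symbol through all 15 gene tables, each of which lists 45706 genes: Fos, Fosb, Fosl1 and Fosl2 of the Fos family, Jun, Junb and Jund of the Jun family, and Atf3, a related bZIP gene induced by stress. All 8 were found in every table. The study asked what the loss of serum response factor (SRF) does to RNA in oligodendrocyte precursor cells (OPCs), the dividing cells that give rise to myelinating oligodendrocytes (OLs), and in OLs themselves. All cells came from the brains of SRF-floxed/floxed mice, whose Srf alleles Cre recombinase can remove, and were purified by immunopanning; the labels give no age. Dividing OPCs received AAV-deleted CRE (control, 4 libraries) or AAV-CRE (SRF-KO, 3 libraries), with the eGFP fusion driven by a CMV promoter, and were frozen 48 hours after infection. The OL cultures were infected on day 6 with a GFP lentivirus (control, 4 libraries) or a CRE-IRES-GFP lentivirus (SRF-KO, 4 libraries) and frozen on day 3 of differentiation. Groups were taken from the sample titles, because the treatment tag of the SRF-KO OLs closes with the word control and the design text describes another system (mesenchymal stem cells with Olig2-Cre). The labels name no Cre-treated cells without floxed alleles, so Cre and loss of SRF cannot be told apart. They also do not say whether replicates came from separate animals or cultures, and p-values measure only the spread between these libraries.

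Fos proteins cannot pair with each other and bind DNA as partners of Jun proteins, whereas Jun proteins can also pair among themselves. Pairs of these proteins bind the AP-1 site, and pairs that include ATF proteins favour the cAMP response element (CRE). Several of these genes are immediate-early genes, whose transcription rises within minutes of a growth factor or stress signal without new protein synthesis. Fos is the textbook example of an SRF target: SRF sits with ternary complex cofactors on the serum response element upstream of its start.

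The stretches just upstream of the start sites are shown for Fos and Jun, the members with the highest mean TPM (level per transcript length) in control OPCs, and for Atf3, whose window holds the same element as that of Fos. RefSeq promoter sequences (GRCm38.p6) matched 7 of the 8 members, all but Fosl1. Below are the 250 bases before the start of Fos (chr12:85473640-85473889, plus strand), Jun (chr4:95052223-95052472, minus strand) and Atf3 (chr1:191183334-191183583, minus strand), 5′ to 3′. Capitals mark the CRE half-site TGACGT, read as ACGTCA on the other strand, in Fos and Atf3, and the 8-base CRE-like TGACATCA in Jun.
Fos: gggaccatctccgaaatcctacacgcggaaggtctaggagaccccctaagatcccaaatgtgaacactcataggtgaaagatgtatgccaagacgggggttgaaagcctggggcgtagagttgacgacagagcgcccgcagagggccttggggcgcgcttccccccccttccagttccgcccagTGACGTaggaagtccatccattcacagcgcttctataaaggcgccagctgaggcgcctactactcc
Jun: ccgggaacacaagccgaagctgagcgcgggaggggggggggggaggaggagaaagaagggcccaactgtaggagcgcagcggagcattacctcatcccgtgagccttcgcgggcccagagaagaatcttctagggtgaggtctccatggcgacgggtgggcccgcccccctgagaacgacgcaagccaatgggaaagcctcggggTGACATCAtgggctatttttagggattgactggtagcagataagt
Atf3: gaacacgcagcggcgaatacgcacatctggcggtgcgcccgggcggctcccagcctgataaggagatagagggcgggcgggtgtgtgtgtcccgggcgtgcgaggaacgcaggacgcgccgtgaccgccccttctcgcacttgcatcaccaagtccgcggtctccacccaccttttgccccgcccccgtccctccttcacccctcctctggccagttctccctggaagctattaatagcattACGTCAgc
The half-site lies 66 to 61 bases before the Fos start and 8 to 3 bases before the Atf3 start, and the Jun element lies 45 to 38 bases before its start. The Atf3 start used is the RefSeq one at 191183333. In GENCODE M21 the gene reaches 191218039 on the minus strand, so this window lies inside the annotated gene. Fos also has TATAAA 33 to 28 bases before its start. The motifs below were searched on both strands of the 7 windows. They were the half-site, the full CRE (TGACGTCA) that contains it, the AP-1 site (TGANTCA), the Jun element, the TATA box (TATAAA) and the CArG box, which is the core of SRF sites. Among 32851 RefSeq windows of the same length, 6.47% held the half-site, 1.55% the full CRE, 6.75% the AP-1 site, 2.93% the Jun element, 12.4% the TATA box and 1.47% a CArG box. No CArG box stood in any of the 7 windows; the serum response element of Fos lies further upstream than this window reaches. A match is a description of letters and not a measured binding site.

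The summed expected counts of a library lay between 4303739 and 16026511, with the 2 shallowest libraries being SRF-KO OL replicates 3 and 4. Levels are given as CPM, a gene's count relative to its library's total, corrected with TMM factors estimated within a stage. Srf was measured first as the check of the knockout. It had 7.87 ± 1.71 CPM in control OPCs (SD, n = 4) and 0.21 ± 0.013 in SRF-KO OPCs (SD, n = 3), a log2 fold change of -5.16 (SE 0.40, adjusted p = 0.000569 in edgeR's quasi-likelihood test). The OL libraries gave 8.29 ± 0.97 CPM for control and 3.04 ± 0.96 CPM for SRF-KO (SD, n = 4 each), a log2 fold change of -1.45 (SE 0.22, adjusted p = 0.0224), which lost its call without any 1 of 6 of the 8 libraries (adjusted p 0.0724 to 0.104). Some libraries stand apart on measures that touch the results below: SRF-KO OPC replicate 2 in Jund and in OPC markers, and SRF-KO OL replicate 4 with 14.2% mitochondrial counts against 9.08% to 11.6% in the other OL libraries.

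The labelled cell types were checked against marker genes. Summed over 8 OPC markers, levels were 6374 to 6728 CPM in control OPCs, 4721 in SRF-KO OPC replicate 2 and 6168 and 6186 in the other SRF-KO OPC libraries. The 8 OL markers summed to 401 to 436 CPM in control OPCs and 445 to 481 CPM in SRF-KO OPCs. They summed to 18067 to 34829 CPM over the control OL libraries and 12885 to 17918 CPM over the SRF-KO OL libraries. Each SRF-KO OL library thus lies below each control in the sum of these 8 markers. Of these 8, edgeR called 1 lower in SRF-KO OLs, the myelin gene Opalin (log2 fold change -1.37, SE 0.21, adjusted p = 0.0228), and DESeq2 called 4 lower (Cnp, Mag, Myrf and Opalin). The 8 astrocyte markers also differed: 1666 to 1767 CPM in control OPCs and 1788 to 1961 CPM in SRF-KO OPCs. In OLs they summed to 17295 to 34738 CPM for control and 9040 to 14206 CPM for SRF-KO. In OPCs edgeR called 0 of these 8, with 6 at an unadjusted p under 0.05, against 11.9% of all genes. DESeq2 called 2 of them higher in SRF-KO OPCs (Aldoc and Aqp4). Gfap, the astrocyte intermediate filament, was on average the largest part of the OL sums. It was at 18738 ± 6748 CPM in control OLs and 7486 ± 1928 in SRF-KO OLs (SD, n = 4 each). In OLs edgeR called 0 of the 8 astrocyte markers, with 1 at an unadjusted p under 0.05, against 11.6% of all genes. Their median OL log2 fold change was -0.20, against 0.024 over all genes, and DESeq2 called Gfap lower. The 8 microglia markers summed to at most 1.61 CPM in OPC libraries and to 9.32 to 15.3 in OL libraries, and 6 of the 8 were at 0 in all control OPC libraries. In bulk RNA, fewer cells of a type and less RNA per cell cannot be told apart, and the part of other cell types in the AP-1 levels below was not tested.

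In control OPCs the order of levels per transcript length (TPM) was Jun, Fos, Jund, Junb, Fosl1, Fosl2, Atf3 and Fosb. Mean TPM was 73.9 ± 5.40 for Jun, 38.5 ± 3.22 for Fos, 29.1 ± 3.99 for Jund, 11.2 ± 0.93 for Junb, 2.98 ± 0.37 for Fosl1, 1.33 ± 0.17 for Fosl2 and 0.78 ± 0.47 for Atf3 (SD, n = 4 each). Neighbours in this order were separated by more than their SDs except Fosl2 and Atf3, whose library values overlap (1.17 to 1.55 and 0.36 to 1.42). In control OLs, Fos (46.8 ± 8.31 TPM), Jund (45.5 ± 6.93) and Jun (44.6 ± 9.10) lay within their SDs of one another, followed by Junb (22.5 ± 3.88). Atf3 (0.80 ± 0.061), Fosl2 (0.62 ± 0.24) and Fosl1 (0.50 ± 0.24) overlap in their library values, and Fosb was last, at 0 to 0.18 TPM. In SRF-KO OPCs the order was Jun (65.5 ± 5.88 TPM), Fos (36.5 ± 1.49), Jund (15.2 ± 7.69), Junb (9.87 ± 1.19), Fosl1 (5.33 ± 0.99) and Fosl2 (1.00 ± 0.23) (SD, n = 3), with Jund and Junb overlapping. In SRF-KO OLs it was Fos (55.1 ± 8.38), Jun (45.8 ± 14.2), Junb (33.6 ± 5.57) and Jund (33.0 ± 9.60) (SD, n = 4), each overlapping its neighbours, then Atf3 (1.17 ± 0.39), Fosl2 (1.07 ± 0.25) and Fosl1 (0.66 ± 0.24). The OL tables count whole gene bodies by their listed lengths, so TPM of genes with introns is not on the same measure in the 2 stages. Within OLs, genes with introns are also not on the same measure as Jun, Junb and Jund, so the OL order holds per listed length only. Jun, Junb and Jund are listed with the same length in both.

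**Figure D1:**
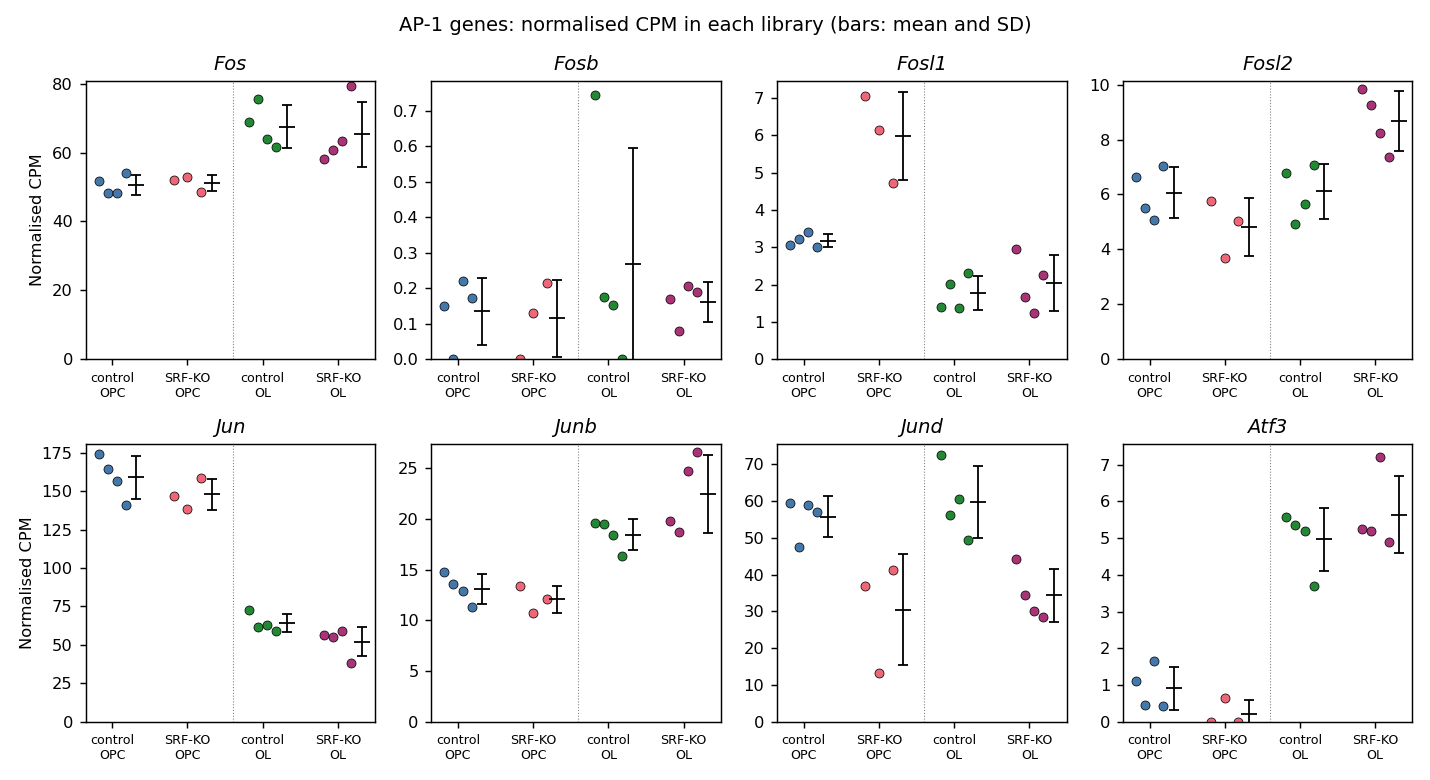
Normalised CPM (vertical axis, from 0) of each AP-1 gene in each library, by group; points are libraries and bars are the mean and SD, with the lower SD bar of Fosb in control OLs clipped at 0. Jund lies lower in every SRF-KO library than in any control library of its stage, while Fos levels overlap between knockout and control in both stages.

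Among the Fos family in OPCs, the founding member Fos (ENSMUSG00000021250, chromosome 12, 85473890 to 85477273, plus strand) had overlapping levels with and without SRF. Control OPC libraries had 51.8, 48.2, 48.2 and 54.1 CPM and SRF-KO OPC libraries 52.0, 52.9 and 48.7. The ranges overlap, and the log2 fold change of 0.02 had a 95% interval of -0.19 to 0.23 (SE 0.095, adjusted p = 0.96). In OLs the control libraries had 68.9, 75.7, 64.0 and 61.6 CPM and the SRF-KO libraries 58.3, 60.7, 63.3 and 79.2. The log2 fold change was -0.05 (95% interval -0.36 to 0.26, adjusted p = 0.94), and the highest value is that of SRF-KO OL replicate 4, without which it was -0.18 (adjusted p = 0.309).

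Fosl1 (Fra-1, ENSMUSG00000024912, chromosome 19, 5447547 to 5455946, plus strand), a Fos relative that lacks the strong activation domain of Fos, was higher in the SRF-KO OPC libraries but did not pass the adjusted test. Control OPCs had 3.06, 3.23, 3.40 and 3.01 CPM and SRF-KO OPCs 7.07, 6.15 and 4.73. The groups do not overlap, and the SRF-KO mean was 188% of control. The log2 fold change was 0.91 (SE 0.25, 95% interval 0.35 to 1.47), with edgeR's unadjusted p at 0.00409 and adjusted p at 0.245. Over leave-one-out fits it ranged from 0.78 to 1.05 and was not called in any of the 7. In OLs the SRF-KO values, 2.96, 1.68, 1.23 and 2.26 CPM, overlapped those of controls, 1.40, 2.02, 1.38 and 2.31, and the log2 fold change was 0.21 (SE 0.32, adjusted p = 0.866). It changed sign without SRF-KO OL replicate 1 (-0.07). Fosl1 overlaps Ccdc85b on the other strand, and the protocol does not mark strand, so reads there cannot be told apart.

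Fosl2 (Fra-2, ENSMUSG00000029135, chromosome 5, 32135801 to 32157842, plus strand), another Fos relative, had a negative knockout difference in OPCs and a positive one in OLs, and neither passed. Control OPCs had 6.64, 5.51, 5.05 and 7.05 CPM and SRF-KO OPCs 5.74, 3.67 and 5.05, a log2 fold change of -0.35 (SE 0.25, adjusted p = 0.615). Control OLs had 6.79, 4.92, 5.66 and 7.06 CPM and SRF-KO OLs 9.83, 9.26, 8.23 and 7.36, so each SRF-KO library was above each control library; with scaling over all 15 libraries they overlap (SRF-KO down to 7.72, control up to 7.83). The log2 fold change was 0.51 (SE 0.18, 95% interval 0.12 to 0.90, unadjusted p = 0.0146), and with adjusted p = 0.297 it did not pass. With SRF-KO OL replicate 4 left out it was 0.56 (adjusted p = 0.0894). The difference between the 2 knockout effects, tested as an interaction, was 0.85 (SE 0.30, adjusted p = 0.354), so it was not shown to differ between the stages.

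Fosb (ENSMUSG00000003545, chromosome 7, 19302696 to 19310051, minus strand), known for its stable truncated isoform in brain, was near the detection limit. The control OPC libraries had 2, 0, 2 and 2 counts, the SRF-KO OPC libraries 0, 2 and 2, the control OL libraries 8, 2, 1 and 0, and the SRF-KO OL libraries 2, 1, 1 and 1. It failed the filter on low counts in every comparison, and no direction is given at this depth.

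Of the Jun family, Jund lay lower in the SRF-KO libraries of both stages, without passing the adjusted test. Jund (ENSMUSG00000071076, chromosome 8, 70698949 to 70700616, plus strand, single exon), a Jun protein widely expressed in resting cells, had 59.5, 47.6, 58.8 and 57.1 CPM in control OPCs and 37.0, 13.3 and 41.1 in SRF-KO OPCs. In control OLs it had 72.6, 56.1, 60.4 and 49.5 CPM and in SRF-KO OLs 44.3, 34.4, 30.0 and 28.5. Each SRF-KO library lies below each control library of its stage, and SRF-KO OPC replicate 2 lies far below the other 2. The log2 fold change was -0.89 in OPCs (SE 0.29, 95% interval -1.53 to -0.25, unadjusted p = 0.0106, adjusted p = 0.299) and -0.79 in OLs (SE 0.17, 95% interval -1.17 to -0.41, unadjusted p = 0.000767, adjusted p = 0.119). Neither passed. Without SRF-KO OPC replicate 2 the OPC value was -0.51 (adjusted p = 0.308), and without SRF-KO OL replicate 4 the OL value was -0.72 and was called (adjusted p = 0.0235). In OLs it was also called by DESeq2's Wald test (adjusted p = 0.00481) and, with no filter on low counts, by edgeR in both stages (adjusted p = 0.0325 in OPCs and 0.0409 in OLs). The interaction was 0.10 (SE 0.35, adjusted p = 0.992).

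Jund is GC-rich, with 67.1% GC in its GENCODE M21 transcript, and GC-rich genes as a group moved the same way. That transcript has 1668 bases, while Jund is listed at 2878 bases in both stages. The GC of the longer form was not measured, so the GC class and correction of Jund rest on the shorter one. Among tested genes with at least 65% GC, 42 of 58 had a negative log2 fold change in SRF-KO OPCs (median log2 fold change -0.43, against -0.0013 over all genes tested) and 48 of 60 in SRF-KO OLs (median -0.26, against 0.024). Over all genes tested, 49.8% in OPCs and 53.9% in OLs had a positive log2 fold change. Of these GC-rich genes, 10 of 58 in OPCs and 9 of 60 in OLs had a log2 fold change below that of Jund. The GC trend of each library was also removed, a setting added after seeing the data. The Jund log2 fold change was then -0.69 in OPCs (SE 0.23, edgeR's unadjusted p = 0.0118, adjusted p = 0.28). In OLs the Jund value was -0.48 (SE 0.17, unadjusted p = 0.0171, adjusted p = 0.371). Its antisense neighbour Gm11175 cannot be told apart without strand, and with both counted as 1 gene the values were -0.90 (adjusted p = 0.289) and -0.85 (adjusted p = 0.154).

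**Figure D2:**
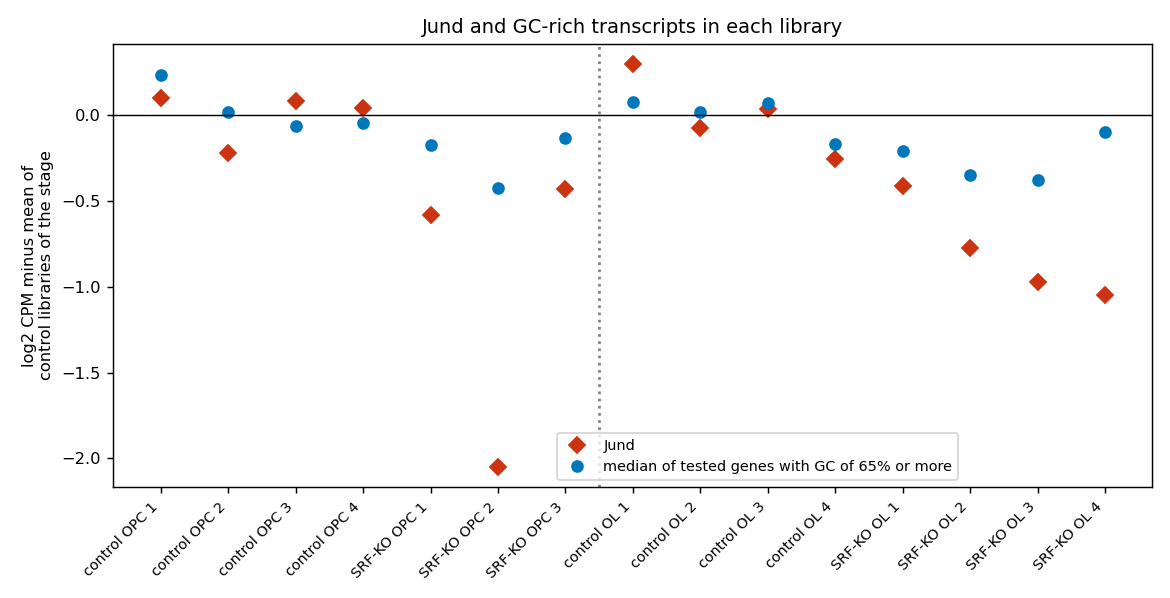
Each library's Jund level (diamonds) and the median of tested genes with 65% GC or more (circles), as log2 CPM minus the mean of the control libraries of its stage (vertical axis); the dotted line separates OPC from OL libraries. The circles of all 7 SRF-KO libraries lie below 0 along with their diamonds, and SRF-KO OPC replicate 2 has the lowest of both. Circles also lie below 0 in control OPC replicates 3 and 4 and control OL replicate 4 (-0.063, -0.046 and -0.17). SRF-KO OL replicate 4 has the lowest OL diamond (-1.05) but the highest circle among the SRF-KO OLs (-0.10).

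Jun (ENSMUSG00000052684, chromosome 4, 95049034 to 95052222, minus strand, single exon), the strongest activator of the family, had 174, 164, 156 and 141 CPM in control OPCs and 147, 139 and 158 in SRF-KO OPCs. The ranges overlap, and the log2 fold change was -0.10 (95% interval -0.31 to 0.10, adjusted p = 0.685). Control OLs had 72.4, 61.7, 63.2 and 59.2 CPM and SRF-KO OLs 56.4, 55.1, 59.0 and 38.1. All SRF-KO OL libraries lie below all controls, by a margin of less than 1 CPM, with a log2 fold change of -0.30 (95% interval -0.64 to 0.048, adjusted p = 0.523). The lowest value is SRF-KO OL replicate 4, and without it the value was -0.20.

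Junb (ENSMUSG00000052837, chromosome 8, 84974484 to 84978718, minus strand), a Jun protein that can restrain Jun, had 14.8, 13.6, 12.9 and 11.3 CPM in control OPCs and 13.4, 10.7 and 12.1 in SRF-KO OPCs. The log2 fold change was -0.13 (SE 0.17, adjusted p = 0.798), and with the GC trend removed it was 0.018. Control OLs had 19.5, 19.5, 18.4 and 16.3 CPM and SRF-KO OLs 19.8, 18.7, 24.7 and 26.6, a log2 fold change of 0.27 (SE 0.15, adjusted p = 0.541). The ranges overlap at SRF-KO OL replicate 2, and with the GC trend removed the OL value was 0.47 (SE 0.13, adjusted p = 0.202).

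Atf3 (ENSMUSG00000026628, chromosome 1, 191170296 to 191218039, minus strand), which is induced by many kinds of cell stress, was scarce in OPCs. Control OPC libraries had 15, 7, 15 and 5 counts and SRF-KO OPC libraries 0, 10 and 0. It failed the filter there, and the pooled counts of 42 and 10 put SRF-KO at 35.9% of control (95% Clopper-Pearson interval 16.1% to 72.7%, counting error only), with all 10 counts from SRF-KO OPC replicate 2. That interval leaves out the spread between libraries. With no filter on low counts, edgeR gave a log2 fold change of -1.79 (SE 0.97, unadjusted p = 0.0739, adjusted p = 0.559), so no drop was shown. In OLs controls had 5.58, 5.36, 5.20 and 3.70 CPM and SRF-KO 5.25, 5.19, 7.20 and 4.90. These overlap, with a log2 fold change of 0.17 (95% interval -0.28 to 0.63, adjusted p = 0.816).

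**Figure D3:**
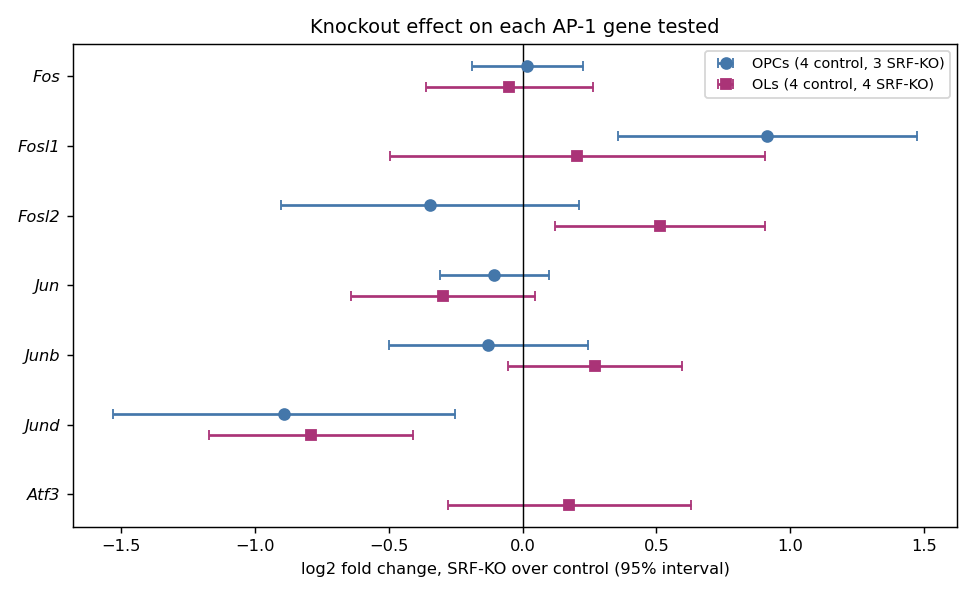
Log2 fold change, SRF-KO over control (horizontal axis), with 95% intervals, for each AP-1 gene tested in OPCs (circles) and OLs (squares). Fosb passed the filter on low counts in neither stage and Atf3 not in OPCs. The Jund intervals lie below 0 in both stages, that of Fosl1 above 0 in OPCs and that of Fosl2 above 0 in OLs, before adjustment over all genes.

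By counts, 0 of the 6 members tested in OPCs passed the adjusted threshold of 0.05, where 0.0678% of 13271 genes did (9 genes). At an unadjusted p under 0.05 the count was 2 (Fosl1 and Jund), against 11.9% of all genes, and DESeq2 called 0. In OLs 0 of 7 passed, against 0.296% of 15193 genes (45 genes); at an unadjusted p under 0.05 the count was 2 (Fosl2 and Jund), against 11.6% of all genes, and DESeq2 called 1. Groups did not overlap for 2 of 6 members in OPCs (12.2% of all genes) and for 3 of 7 in OLs (8.09% of all genes). The median log2 fold change of the members was -0.12 in OPCs and 0.17 in OLs, against -0.0013 and 0.024 over all genes. With library totals, which shift the OL median of all genes from 0.024 to 0.24, the OL values were -0.065 for Jun, 0.50 for Junb, 0.72 for Fosl2, -0.56 for Jund, 0.40 for Fosl1, 0.41 for Atf3 and 0.17 for Fos, with 0 called. In the interaction no member passed edgeR's adjusted test, against 0.112% of 16135 genes, and DESeq2 called 0. Atf3 entered that fit only through its OL counts and is left out of the count at an unadjusted p under 0.05, which was 1 of 6 (Fosl2), against 9.25% of all genes. The fitted Atf3 interaction ran from 1.26 to 6.24 over libraries left out (6.24 without SRF-KO OPC replicate 2, which holds all of its SRF-KO OPC counts).

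Control OLs and control OPCs differed widely, with 79.7% of 15027 genes past the threshold, so the members' calls are read against that. The stages differ in virus, culture time and the quantification of introns as well as in cells. Values here are CPM scaled over the 8 control libraries. Jun fell, from 154, 146, 138 and 123 CPM in OPCs to 74.6, 63.4, 66.8 and 63.1 in OLs, a log2 fold change of -1.07 (SE 0.097, adjusted p = 3.08e-07). Fos rose, from 45.8, 42.7, 42.6 and 47.1 to 71.1, 77.8, 67.6 and 65.7, a log2 fold change of 0.66 (SE 0.086, adjusted p = 9.79e-06). The groups overlap in neither gene, and both directions and calls held with library totals (0.31 for Fos, adjusted p = 0.0135, and -1.41 for Jun) and with the GC trend removed (0.45 and -1.26). Fos is listed at 2025 to 2108 bases in OPC tables and 2927 to 3384 in OL tables, and its TPM overlaps between the stages (35.2 to 42.0 and 39.0 to 58.5). The part of intron reads in its higher OL counts was not tested.

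Junb rose from 13.1, 12.0, 11.4 and 9.78 CPM to 20.1, 20.1, 19.4 and 17.4, a log2 fold change of 0.73 (SE 0.13, adjusted p = 0.000189), and 0.39 with library totals (adjusted p = 0.0226). Atf3 had 0.99, 0.39, 1.46 and 0.37 CPM in OPCs and 5.76, 5.51, 5.50 and 3.95 in OLs, a fitted log2 fold change of 2.74 (SE 0.39). It passed the filter on low counts only through the OL libraries, so no call is read from this value. Its listed length is 1407 to 1984 bases in OPC tables and 13045 to 13720 in OL tables, and its mean TPM was 0.78 in OPCs and 0.80 in OLs. Jund was called higher, at 0.34 (SE 0.12, adjusted p = 0.0163), but this flips to -0.015 with library totals and -0.051 with the GC trend removed, and the call is lost without control OPC replicate 2 (0.26, adjusted p = 0.067) or control OL replicate 1 (0.24, adjusted p = 0.0648). Fosl1 was at -0.56 (adjusted p = 0.0777) and Fosl2 at 0.26 (adjusted p = 0.238). Fosl1 was called with library totals (-0.88) and Fosl2 flips there (-0.07). Leaving out Atf3, 4 of 6 members passed, 3 higher (42.5% of all genes) and 1 lower (37.1% of all genes). Library totals shift the median of all genes from 0.10 to -0.24.

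**Figure D4:**
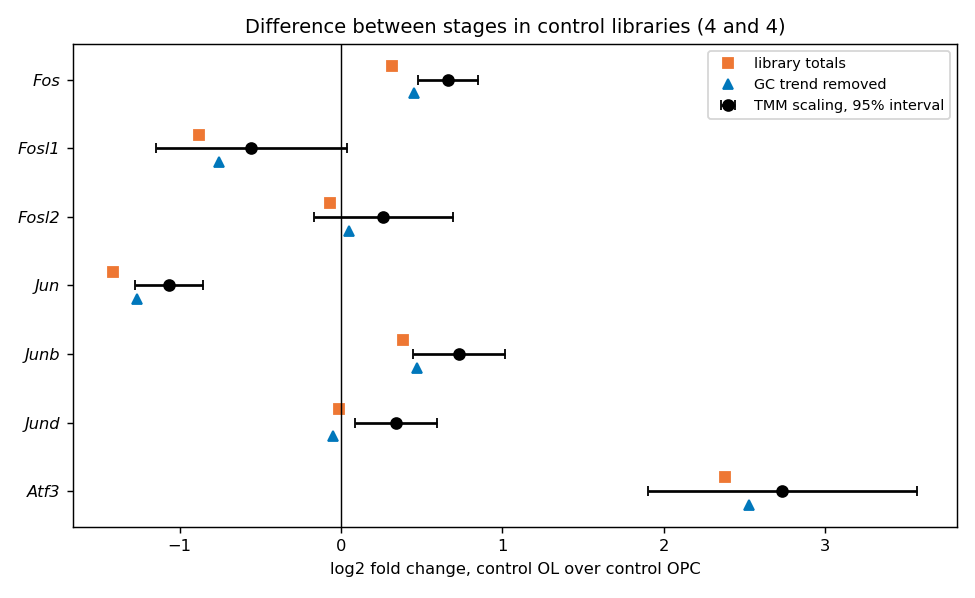
Log2 fold change of control OLs over control OPCs (horizontal axis) with TMM scaling and its 95% interval (circles), with library totals (squares) and with the GC trend removed (triangles). Jun lies below 0 and Fos, Junb and Atf3 above 0 in all 3, while Atf3 entered the fit only through its OL counts; Jund reaches 0.34 only with TMM and lies just below 0 in the others.

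The make-up of Jun family mRNA can be compared across stages, since the 3 genes are listed with equal lengths in both. In the GENCODE M21 annotation, Jun overlaps Junos and Junb overlaps Prdx2 on the other strand, as Jund does Gm11175. Without strand, reads in an overlap cannot be told apart, and their part in the Jun and Junb values was not tested. In OPCs the Jun to Jund ratio of TPM was 2.21 to 3.09 for control and 3.44 to 9.34 for SRF-KO libraries. In OLs it was 0.90 to 1.08 for control and 1.15 to 1.77 for SRF-KO libraries. It does not overlap between SRF-KO and control in either stage; without SRF-KO OPC replicate 2 the SRF-KO OPC values are 3.44 and 3.54. The Junb to Jun ratio in OPCs was 0.15 to 0.16 for control and 0.14 to 0.17 for SRF-KO libraries. In OLs it was 0.48 to 0.56 for control and 0.60 to 1.23 for SRF-KO libraries, and SRF-KO OL replicate 4 has the highest value. These ratios restate the fold changes above and carry the same GC trend.

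**Figure D5:**
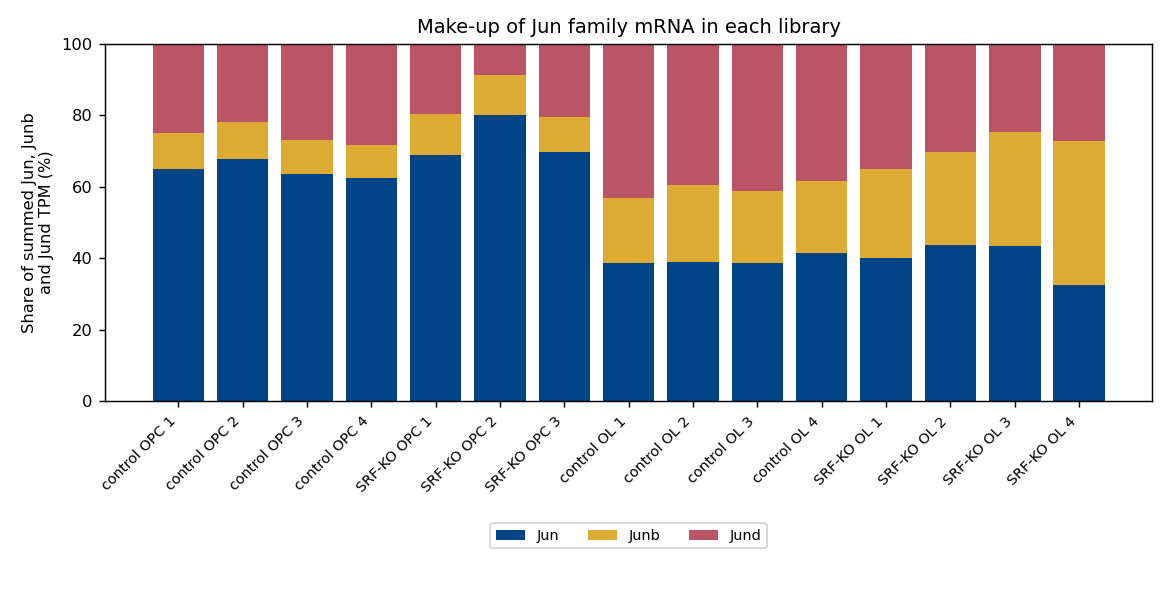
Shares of Jun, Junb and Jund in their summed TPM (vertical axis, percent) in each library. Jun holds 62.5% to 67.8% in control OPCs and 38.6% to 41.4% in control OLs, and Jund is smaller in each SRF-KO library than in every control library of its stage.

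The rest of the pathway was followed through gene lists. Among other immediate-early genes, 1 of 18 tested fell in SRF-KO OPCs and 0 rose: Egr1, a zinc finger factor and known SRF target, went from 269 ± 10.9 CPM (SD, n = 4) to 167 ± 9.99 (SD, n = 3), a log2 fold change of -0.69 (SE 0.08, adjusted p = 0.0152). It lost its call without any 1 of 5 of the 7 libraries (adjusted p 0.052 to 0.0918). At an unadjusted p under 0.05 there were 7 of 18, against 11.9% of all genes, and DESeq2's test called 5 of the 18, 4 lower and 1 higher. Of the 17 tested in OLs, edgeR called 0, 4 had an unadjusted p under 0.05, against 11.6% of all genes, and DESeq2 called 1 higher. The list's median was -0.058 in OPCs and 0.16 in OLs. SRF and its cofactors had 1 of 7 lower in each stage, Srf itself.

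The other bZIP partners had 0 of 8 called by edgeR in OPCs (0 at an unadjusted p under 0.05, and 0 by DESeq2 or limma-voom) and 1 of 8 lower in OLs. This was Atf2, a CRE-binding partner of Jun, at 1058 ± 309 CPM in control OLs and 283 ± 126 in SRF-KO OLs (SD, n = 4 each), a log2 fold change of -1.90 (SE 0.33, adjusted p = 0.0384). Its listed length was 3004 to 3505 bases in OPC tables and 29698 to 31153 in OL tables, and its control OPC level was 72.3 ± 6.33 CPM. The call is lost when control OL replicate 1, 2 or 3 is left out, and likewise for replicate 2 or 3 of the SRF-KO OLs (adjusted p 0.091 to 0.165).

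No gene of the other pathway lists passed edgeR's adjusted test in either knockout comparison, and limma-voom called 0 in all of them. Their counts at an unadjusted p under 0.05 are read against 11.9% of all genes in OPCs and 11.6% in OLs. MAP kinases and their activators, which phosphorylate Jun and the Fos cofactors, had 0 of 16 called in each stage, with 0 in OPCs and 2 in OLs at an unadjusted p under 0.05, and DESeq2 called 0. Genes acting on the turnover of Fos and Jun had 0 of 11 called in each stage, with 3 and 1 at that unadjusted level, and DESeq2 called 0 in OPCs and 1 lower in OLs. Integrated stress response genes, the pathway that also raises Atf3, had 0 of 8 in OPCs and 0 of 7 in OLs, with 0 at the unadjusted level and 0 by DESeq2.

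Genes known as AP-1 targets in other cells had 0 of 9 called in OPCs (0 at the unadjusted level, 0 by DESeq2) and 0 of 8 in OLs (2 at the unadjusted level). Ccnd1, a cyclin and the most abundant target in OPCs, was at 2164 ± 86.7 CPM in control (SD, n = 4) and 2101 ± 243 CPM in SRF-KO OPCs (SD, n = 3). Cd44, a hyaluronan receptor and the most abundant target in OLs, was at 979 ± 297 CPM in control and 376 ± 116 CPM in SRF-KO OLs (SD, n = 4 each). Its log2 fold change was -1.38 (SE 0.27, adjusted p = 0.0694 in edgeR), and it was the 1 target called by DESeq2. The summed OL markers and the summed astrocyte markers given above were also lower in every SRF-KO OL library than in any control OL library (1 of 8 OL and 0 of 8 astrocyte markers called by edgeR, and 4 and 1 by DESeq2). The astrocyte sums are on average mostly Gfap, and the median log2 fold change of the 8 astrocyte markers was -0.20. The part of these cell types in the Cd44, Atf2 and Jund values was not tested.

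Heat shock genes, often raised by handling, had 0 of 6 called in SRF-KO OPCs and 0 of 7 in SRF-KO OLs by edgeR (0 and 1 at the unadjusted level, 0 by DESeq2). Their sum in OPCs was 6622 to 7148 CPM for control and 6621 to 6895 for SRF-KO libraries, and in OLs it was 1527 to 2371 CPM for control and 1606 to 1953 for SRF-KO libraries. Between stages 13 of 19 other immediate-early genes were lower in OLs and 5 higher, against 37.1% and 42.5% of all genes, with a median of -1.11 against 0.10 over all genes. Of this list 18 passed the filter on low counts in the OPC knockout fit and 17 in the OL one. Some of the 19 may thus have entered through 1 stage alone, which sets their direction, and these were not left out. The counts and median are therefore not read as a fall of the list.

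The genes most like Fosl1 over the 7 OPC libraries, by the smallest root mean square difference of centred log2 CPM among 9677 genes, were Pik3ip1 (0.18), Mxd4 (0.18) and Ckmt1 (0.18), where the median gene was at 0.48. For Jund over the 8 OL libraries they were Hs6st1 (0.10), Atxn2l (0.11) and Aes (0.11), against a median of 0.52 over 10413 genes.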

How the data were processed

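PolyA RNA of the 15 samples was made into Smart-seq2 libraries, per the labels' protocols. The submitters' processing notes name bcl2fastq, STAR and RSEM, without versions, and the builds GRCm38 and Rnor_6.0. The deposited expected count is the number of reads that the authors' RSEM run assigned to a gene and the deposited TPM is that value per effective length; the deposited lengths were used to see what each table counts. Expected counts were rounded and tested in edgeR 4.0.16 (R 4.3.3) with filterByExpr, TMM and the quasi-likelihood F-test, two-sided, Benjamini-Hochberg adjusted over all genes tested at 0.05. Knockout fits used 1 stage, the stage fit used controls only, and the interaction used all 15 libraries. The SE is the absolute log2 fold change over the square root of F. Alternatives were DESeq2 1.42.0 (its size factors and its test), limma-voom 3.58.1, library totals, no filter, the replicate number and each library left out; the GC trend (loess span 0.3) and Jund joined with Gm11175 were added after seeing the data. Replicates of a group differed by more than sampling noise (chi-square per degree of freedom 4.54 to 54.3 over 21 pairs). Scripts were tested on simulated data. Named were all members, Srf, up to 2 called genes per list and comparison (else its most abundant one), and the 3 genes most like the member with the smallest p in each stage. The members, lists and tests were chosen with earlier results of these data known. Coordinates are GENCODE M21 on GRCm38.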

Additional observations from a re-analysis of the deposited data

Results flagged for a closer look

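Atf3 in SRF-KO OL replicate 3 was at 7.20 CPM while the other SRF-KO OL libraries had 4.90 to 5.25. Its gap to the nearest library was 0.849 of the group's range, above Dixon's critical value of 0.829 for 4 libraries. Chance alone marks about 1 in 20 groups, and 27 groups were examined, of which 1 was marked. Scaled over all 15 libraries instead, Fos at 83.2 CPM (others 63.3 to 66.6) and Jun at 40.0 (others 59.2 to 62.1) in SRF-KO OL replicate 4 were beyond that value too. The Srf knockout effect differed between the stages: the OL log2 fold change minus the OPC one was 3.68 (SE 0.46, adjusted p = 0.00465 in edgeR's interaction test). The stages differ in virus and time after infection, and Srf is listed at 4093 bases in OPC tables and 9324 in OL tables, so the 2 effects are not on the same measure.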

How the results depend on the processing

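Over 452 recomputed member fold changes, 427 kept direction and call, 2 lost and 7 gained a call, and 16 changed sign; the causes were not tested. The 427 include 15 Atf3 values between stages and 22 in the interaction. Atf3 entered those fits only through its OL counts, so these say nothing on how steady the results are. In OPCs the 9 genes called became 139 with DESeq2's test, 101 without a filter and 1 to 4 with a library left out, and members called went from 0 to 1 without a filter. In OLs the 45 genes (10 higher, 35 lower) became 74 with library totals (39 higher, 35 lower), 299 with DESeq2 and 129 without a filter, and 7 to 636 with a library left out (71 without control OL replicate 4, 636 without SRF-KO OL replicate 4); members called went from 0 to 1 with DESeq2, without a filter and without SRF-KO OL replicate 4 (0 to 1 over libraries left out). For the interaction, 18 genes became 169 with DESeq2, 30 with limma-voom, 88 without a filter and 4 to 134 with a library left out. Signs changed for Fos in OPCs (-0.0036 with the GC trend removed, -0.0073 to 0.053 over libraries left out), Junb in OPCs (0.018, GC), Fos in OLs (0.17 with library totals, -0.18 to 0.0087 over libraries left out), Fosl1 in OLs (-0.072 to 0.37 likewise), stage Fosl2 (-0.070, library totals), stage Jund (-0.015, library totals; -0.051, GC) and the interaction for Fos (0.13) and Jun (0.021) with library totals and Jund (-0.26 to 0.37 over libraries left out). Same-numbered libraries correlated at -0.016 to 0.049 in OPCs, -0.28 to 0.026 in OLs and -0.037 to 0.12 between stages. Differently numbered ones correlated at -0.051 to 0.051, -0.23 to 0.28 and -0.14 to 0.14. Each profile was centred on its group mean, which balances these values around 0. They therefore cannot decide whether same-numbered libraries share an origin. With a replicate block, 2 genes were called in OPCs, 5 in OLs and 0 in the interaction. At the depth of these libraries Fosb in both stages and Atf3 in OPCs could not be tested.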
